A study of Rattus norvegicus with 20 samples.

Results

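The genes described here are 10 transcription factors of striatal neurons: Foxp1, Bcl11b, Meis2, Rarb, Isl1, Ebf1, Foxp2, Zfp503, Six3 and Sp9. They were chosen by name, as the rows of the deposited count table that carry these symbols, and they make up 10 of its 17296 symbols. All 10 passed the filter on low counts and are among the 12846 genes tested. RNA was measured in the nucleus accumbens, the ventral part of the striatum, of male wild-type Sprague-Dawley rats aged 7 to 9 weeks that self-administered cocaine and were housed 2 per cage. Their drink held both antibiotics and short-chain fatty acids (Abx_SCFA, n = 5), the fatty acids alone (SCFA, n = 6), antibiotics alone (Abx, n = 4) or neither (H2O, n = 5). Short-chain fatty acids are fermentation products of gut bacteria, and antibiotics deplete those bacteria. All 4 groups share the strain, the sex and the cocaine, so no comparison isolates the drug.

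Medium spiny neurons, the inhibitory projection neurons of the striatum, fall into a D1 type that carries the D1 dopamine receptor and a D2 type that carries the D2 receptor. Both types arise in the lateral ganglionic eminence of the embryo, where transcription factors set first the common and then the type-specific identity, and many of these factors stay on in the adult. In mice, Foxp1, Bcl11b, Meis2 and Rarb are found broadly in these neurons, Isl1, Ebf1, Foxp2 and Zfp503 are linked to the D1 type, and Six3 and Sp9 are needed to form the D2 type. Several of the 10 are not limited to these neurons: Isl1 also marks cholinergic interneurons, Ebf1 is also made by pericytes, and Foxp1, Foxp2, Bcl11b and Meis2 are also expressed in cortex.

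Library totals ran from 17525358 to 25731636 counts. All 24 listed markers of medium spiny neurons in general, of the D1 type and of the D2 type were detected in every library. The summed level of 12 medium spiny neuron markers ran from 9894 to 11281 CPM (counts scaled to a common library size) in Abx_SCFA, from 5526 to 11983 CPM in SCFA, from 8897 to 12556 CPM in Abx and from 9386 to 11876 CPM in H2O. SCFA replicates 2 and 5 stood apart, with 5526 and 5850 CPM of these markers, against at least 8409 CPM in every other library. They also held the most RNA of 9 cortical excitatory neuron markers, 977 and 1510 CPM, against 46.8 to 716 CPM in the other libraries. H2O replicate 4 and Abx_SCFA replicate 5 also differed from their groups: Cend1, a neuronal gene of cell cycle exit, had 7 and 8 counts there and at most 14 in every SCFA library, but at least 88 in the other 12 libraries. The rat numbers of Abx_SCFA and SCFA are all of the 4-hundred series, and those of Abx and H2O are of the 2-hundred and 3-hundred series. Number series and fatty acids therefore cannot be told apart in SCFA against H2O, Abx_SCFA against H2O and Abx_SCFA against Abx.

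The RefSeq promoter table of the GRCr8 build held 7 of the 10 genes (Foxp1, Isl1, Ebf1, Six3, Rarb, Sp9 and Zfp503), each with 250 bases before and 50 after the annotated start. GRCr8 is not the build named for the deposited counts, so these coordinates belong to GRCr8 alone. The 4 promoters below are those of Rarb, Six3, Foxp1 and Sp9. Rarb, Six3 and Foxp1 are the 3 of the 7 with a match to the motifs put in capitals. Sp9, whose level moved apart from theirs across libraries, has none, and neither do Isl1, Ebf1 and Zfp503. Levels of Zfp503 moved with those of Rarb (Pearson's r of log2 CPM = 0.913) and Six3 (r = 0.881). Factors that moved together thus include some without a match. Rarb lies at chr15:11336142-11336441 on the plus strand, Six3 at chr6:14796207-14796506 on the minus strand, Foxp1 at chr4:133353231-133353530 on the minus strand and Sp9 at chr3:78554095-78554394 on the plus strand. Each is written 5′ to 3′ in the direction of the gene, with matches to motifs of retinoic acid receptors, forkhead, MEIS, homeodomain and EBF factors in capitals.
Rarb: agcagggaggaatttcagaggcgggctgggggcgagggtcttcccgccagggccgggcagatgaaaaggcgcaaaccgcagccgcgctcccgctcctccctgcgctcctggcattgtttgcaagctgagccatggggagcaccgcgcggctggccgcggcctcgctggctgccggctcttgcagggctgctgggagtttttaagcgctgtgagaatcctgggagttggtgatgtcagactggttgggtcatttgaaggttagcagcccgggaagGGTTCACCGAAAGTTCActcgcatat
Six3: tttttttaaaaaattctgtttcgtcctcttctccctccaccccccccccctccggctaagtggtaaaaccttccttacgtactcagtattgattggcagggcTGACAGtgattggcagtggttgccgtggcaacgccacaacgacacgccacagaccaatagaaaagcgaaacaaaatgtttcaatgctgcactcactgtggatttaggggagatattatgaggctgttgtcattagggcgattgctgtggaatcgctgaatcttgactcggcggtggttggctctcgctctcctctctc
Foxp1: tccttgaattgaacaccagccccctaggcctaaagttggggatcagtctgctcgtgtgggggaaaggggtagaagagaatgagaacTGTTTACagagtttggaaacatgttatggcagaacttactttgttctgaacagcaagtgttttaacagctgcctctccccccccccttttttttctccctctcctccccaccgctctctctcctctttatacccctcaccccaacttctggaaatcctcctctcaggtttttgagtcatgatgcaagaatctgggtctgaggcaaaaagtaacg
Sp9: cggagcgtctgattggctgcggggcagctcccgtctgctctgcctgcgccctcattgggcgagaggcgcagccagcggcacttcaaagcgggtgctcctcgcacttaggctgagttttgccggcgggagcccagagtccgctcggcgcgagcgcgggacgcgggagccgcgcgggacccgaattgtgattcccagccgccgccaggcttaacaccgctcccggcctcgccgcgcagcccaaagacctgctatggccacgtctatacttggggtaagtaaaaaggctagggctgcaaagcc
The capitals in Rarb mark the retinoic acid response element for which this gene's promoter is known, the half-sites GGTTCA and AGTTCA with 5 bases between them, at bases 25 to 41 after the start. Of 33469 rat promoters of 300 bases, 0.00896% held this element on either strand. In Foxp1 they mark the forkhead motif TGTTTAC (3.78% of promoters), at bases -164 to -158. In Six3 they mark the MEIS motif TGACAG (19.0% of promoters), at bases -148 to -143. The homeodomain motif TAATTA (5.36%) and the EBF motif, TCCC and GGGA with 2 bases between them (0.834%), were in none of the 7 promoters. GC content ran from 37.0% in Ebf1 to 67.0% in Sp9, against a median of 51.7% over all promoters. A match describes letters only and is not evidence of binding, and the annotated start need not be the one used in the accumbens.

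Among the 4 factors found broadly in medium spiny neurons, Rarb, a nuclear receptor for retinoic acid, varied most. Rarb stood at 129.8, 139, 148, 139 and 123 CPM in Abx_SCFA, and in SCFA its lowest, median and highest values were 54.2, 117 and 127 CPM. In Abx it stood at 111, 133, 154 and 111 CPM, and in H2O at 152, 167, 122, 124 and 112 CPM. SCFA replicates 5 and 2, at 54.2 and 79.2 CPM, were the lowest of all 20 libraries, while the other 4 SCFA libraries ran from 111 CPM up. Foxp1, a forkhead repressor, stood at 101, 106, 106, 118 and 97.8 CPM in Abx_SCFA, and at 65.2 (lowest), 94.8 (median) and 120.2 CPM (highest) in SCFA. Its values were 92.6, 110.0, 126 and 94.4 CPM in Abx, and 106, 138, 127, 91.3 and 95.7 CPM in H2O. All 4 groups overlapped, and the ratio of the highest to the lowest library was 2.11 for Foxp1 and 3.07 for Rarb.

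Bcl11b, a zinc finger factor also called Ctip2 that mice need for medium spiny neurons to mature, stood at 377, 432, 431, 461 and 407.1 CPM in Abx_SCFA, with 263, 379.8 and 434 CPM as the lowest, median and highest SCFA values. In Abx it stood at 391, 430.0, 476 and 355 CPM, and in H2O at 413.9, 509, 446, 378 and 372 CPM. The lowest 2 libraries were again SCFA replicates 5 and 2, and the groups overlapped. Meis2, a homeodomain factor of the TALE class, had the flattest profile of the 10, with a ratio of 1.56 between its highest and lowest library. It stood at 363, 411.998, 419, 439.5 and 395 CPM in Abx_SCFA, and at 304.6 (lowest), 353 (median) and 417 CPM (highest) in SCFA. The Abx libraries had 368, 410.0, 439 and 384 CPM of Meis2, and the H2O libraries 406.5, 477, 393, 402.8 and 367 CPM. Its coefficient of variation over the 20 libraries, 10.1%, was the one below the median of all tested genes, 11.6%.

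Of the factors linked to the D1 type, Isl1, a LIM homeodomain factor, had the widest range of all 10, with a ratio of 5.02 between its highest and lowest library. It stood at 8.81, 6.08, 6.77, 6.31 and 6.04 CPM in Abx_SCFA, and at 1.90 (lowest), 5.57 (median) and 6.70 CPM (highest) in SCFA. In Abx it stood at 4.70, 8.71, 7.29 and 6.26 CPM, and in H2O at 9.05, 6.50, 8.60, 9.55 and 5.77 CPM. SCFA replicates 2 and 5 were lowest, at 1.90 and 2.81 CPM, and 3 of the 5 H2O libraries lay above every SCFA library. Isl1 also rested on the fewest counts of the 10, from 37 to 212 per library. Foxp2, a forkhead factor known in humans for its role in speech, stood at 74.5, 78.8, 89.3, 95.7 and 73.4 CPM in Abx_SCFA, and at 42.2 (lowest), 67.4 (median) and 96.5 CPM (highest) in SCFA. Its levels were 60.7, 96.9, 94.97 and 75.0 CPM in Abx, and 99.2, 111, 90.1, 126 and 67.6 CPM in H2O. H2O replicates 4 and 2 were above every other library, and H2O replicate 5 was the lowest H2O library.

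Zfp503, a zinc finger gene also called Nolz1, stood at 38.6, 32.2, 40.6, 39.1 and 33.0 CPM in Abx_SCFA, and at 15.3 (lowest), 28.9 (median) and 39.5 CPM (highest) in SCFA. In Abx it stood at 27.2, 32.3, 46.0 and 35.6 CPM, and in H2O at 42.0, 44.1, 35.7, 38.3 and 31.8 CPM. A single SCFA library, replicate 4, reached the upper part of the H2O range, and 4 of the 6 SCFA libraries lay below all 5 H2O libraries. Ebf1, a helix-loop-helix factor that guides D1 neuron development in mice, stood at 14.97, 17.97, 16.8, 18.4 and 17.5 CPM in Abx_SCFA, and at 9.37 (lowest), 13.6 (median) and 20.1 CPM (highest) in SCFA. It had 14.5, 17.4, 13.3 and 10.1 CPM in Abx, and 14.0, 18.8, 22.1, 13.6 and 14.99 CPM in H2O. Its lowest 2 libraries were SCFA replicate 2 and Abx replicate 4, and the groups overlapped throughout.

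The pair needed for the D2 type parted. Six3, a homeobox factor, stood at 34.9, 32.5, 44.9, 34.9 and 30.4 CPM in Abx_SCFA, and at 16.0 (lowest), 30.9 (median) and 38.2 CPM (highest) in SCFA. In Abx it stood at 28.9, 45.3, 45.6 and 30.5 CPM, and in H2O at 42.9, 47.6, 44.6, 34.0 and 28.7 CPM. SCFA replicates 2 and 5 were again lowest, at 16.0 and 17.1 CPM. Sp9, a zinc finger factor of the Sp family, stood at 20.7, 17.2, 21.3, 16.8 and 21.0 CPM in Abx_SCFA, and at 14.4 (lowest), 17.7 (median) and 20.1 CPM (highest) in SCFA. Its levels were 17.0, 18.3, 22.9 and 19.7 CPM in Abx, and 17.8, 18.8, 18.2, 13.1 and 20.6 CPM in H2O. SCFA replicate 2, lowest for Six3, was the highest SCFA library for Sp9, and the lowest Sp9 library of all was H2O replicate 4.

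**Figure D1:**
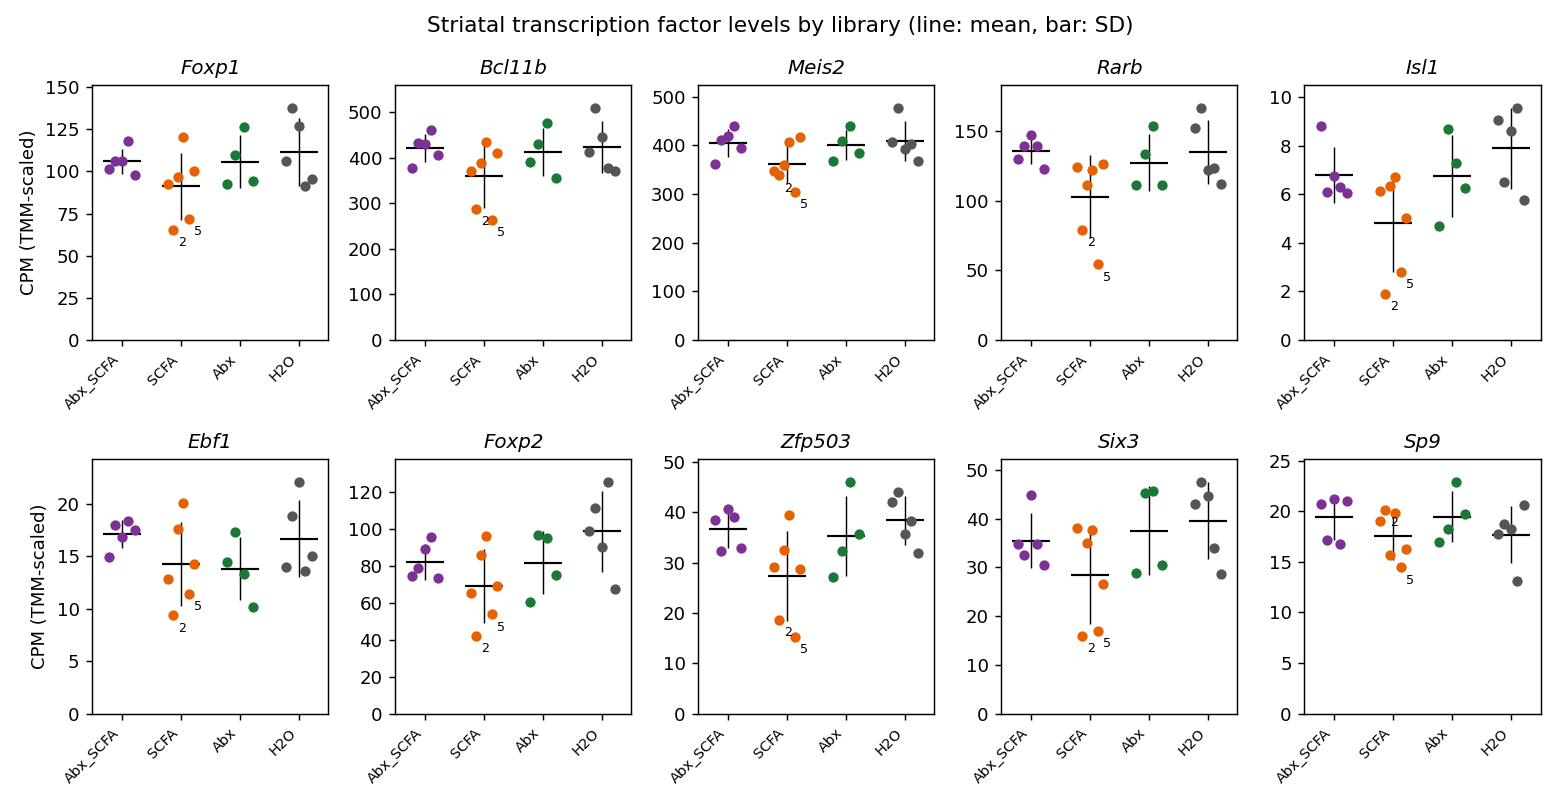
Levels of the 10 transcription factors in CPM (linear axes from 0) in each of the 20 libraries, with 1 panel per gene and the groups in the order Abx_SCFA, SCFA, Abx and H2O; points are libraries and bars are means with SD (n = 5, 6, 4 and 5). SCFA replicates 2 and 5, numbered in the panels, are the lowest 2 libraries for 8 genes, and Sp9 stays between 13.1 and 22.9 CPM in every group.

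The design first asks what fatty acids do in rats with an intact microbiome. Between SCFA and H2O, 0 of the 10 factors passed edgeR's quasi-likelihood test with Benjamini-Hochberg adjustment over all genes, and 0% of the 12846 genes did. DESeq2 and limma-voom also called 0 of the 10, where DESeq2 called 10 of the 12846 genes and limma-voom 0. All 10 fold changes were negative, with a median log2 fold change of -0.34, against -0.0030 over all genes tested. At an unadjusted p below 0.05, 7 of 10 were lower in SCFA and 0 higher, where 5.58% of all tested genes were lower and 8.2% higher. The groups overlapped for all 10, where 0.537% of all tested genes had groups that did not. Because the tissue is bulk, fewer cells of a type and less RNA per cell cannot be told apart.

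Isl1 had the largest difference, with 4.82 ± 2.01 CPM in SCFA (SD, n = 6) and 7.89 ± 1.66 CPM in H2O (SD, n = 5). Its log2 fold change was -0.71 ± 0.25 (SE, edgeR unadjusted p = 0.0109, adjusted p = 0.252). Foxp2 averaged 68.9 ± 20.04 CPM in SCFA and 98.8 ± 21.96 CPM in H2O, a log2 fold change of -0.52 ± 0.19 (edgeR unadjusted p = 0.0123, adjusted p = 0.256). Zfp503 averaged 27.3 ± 8.94 CPM in SCFA and 38.4 ± 4.92 CPM in H2O, a log2 fold change of -0.49 ± 0.19 (edgeR unadjusted p = 0.0165, adjusted p = 0.269). These 3 are all linked to the D1 type, but the fourth, Ebf1, had -0.23 ± 0.17 (edgeR adjusted p = 0.608). Six3 averaged 28.5 ± 10.2 CPM in SCFA and 39.6 ± 7.91 CPM in H2O, with -0.47 ± 0.22 (edgeR unadjusted p = 0.0443, adjusted p = 0.349). Rarb averaged 103 ± 29.6 CPM in SCFA and 135 ± 23.1 CPM in H2O, with -0.39 ± 0.17 (edgeR unadjusted p = 0.0345, adjusted p = 0.323). The log2 fold changes of Foxp1, Bcl11b and Meis2 were -0.29 ± 0.14, -0.24 ± 0.12 and -0.18 ± 0.082, with edgeR adjusted p from 0.349 to 0.376. Sp9 averaged 17.6 ± 2.405 CPM in SCFA and 17.7 ± 2.80 CPM in H2O, a log2 fold change of -0.01 with a 95% interval from -0.25 to 0.23.

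**Figure D2:**
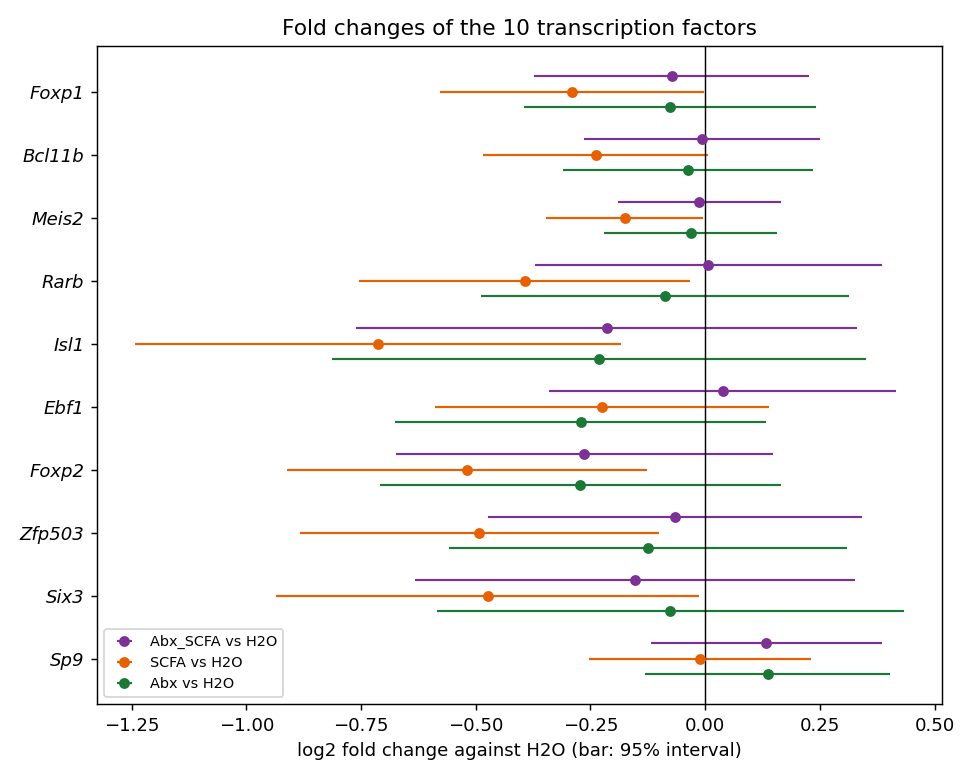
Log2 fold changes of the 10 factors with 95% intervals from edgeR, for Abx_SCFA against H2O, SCFA against H2O and Abx against H2O (n = 5, 6, 4 and 5 libraries in Abx_SCFA, SCFA, Abx and H2O). The SCFA values run from -0.71 for Isl1 to -0.01 for Sp9, and no factor passed the adjusted threshold.

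The count of 7 depended on the fit and on single libraries. It was 7 in DESeq2 and 8 in limma-voom, where 5.72% of all tested genes were lower at an unadjusted p below 0.05 in each. With no filter on low counts it was 7 (4.62% of all genes), and with RLE scaling in place of TMM 6 (5.44%). Fitted on the SCFA and H2O libraries alone it was 3, where 4.19% of all tested genes were lower at that p. It was 3 without SCFA replicate 2, without SCFA replicate 5, without H2O replicate 1 or without H2O replicate 2, and 4 without Abx_SCFA replicate 2. It was 8 without H2O replicate 5 and 9 without SCFA replicate 4. Over these leave-one-out fits the share of all genes lower at that p ran from 3.9% without H2O replicate 2 to 7.69% without H2O replicate 5, and it was 7.42% without SCFA replicate 4. With SCFA replicates 2 and 5 both left out, Isl1 alone remained at an unadjusted p below 0.05, with a log2 fold change of -0.38 ± 0.18 (edgeR adjusted p = 0.864), where 2.81% of all genes were lower at that p. Foxp2 then had -0.31 ± 0.17, Zfp503 -0.24 ± 0.13, Six3 -0.19 ± 0.17 and Rarb -0.16 ± 0.11. Leaving out H2O replicate 5 as well, the H2O library with the most cortical RNA and an alternative chosen after these values were seen, gave -0.47 ± 0.18 for Isl1, -0.42 ± 0.15 for Foxp2 and -0.29 ± 0.14 for Zfp503, the 3 of 10 then at an unadjusted p below 0.05 (5.66% of all genes were lower). Without H2O replicate 4 and Abx_SCFA replicate 5, also chosen after values were seen, the count was 6 (4.38% of all genes were lower) and Isl1 had -0.63 ± 0.28, Foxp2 -0.41 ± 0.20 and Sp9 -0.10 ± 0.11. The lowest edgeR adjusted p of any factor under any setting was 0.0868, for Foxp2 without H2O replicate 5.

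Markers of cell types moved with these values. In SCFA against H2O, all 12 medium spiny neuron markers had negative log2 fold changes (median -0.29, 3 of 12 at an unadjusted p below 0.05), as did 5 of 6 D1 markers (median -0.35) and 6 of 6 D2 markers (median -0.37). All 9 measured cortical excitatory neuron markers had positive ones (median 2.64, 8 of 9 at an unadjusted p below 0.05). The summed cortical level ran from 131 to 1510 CPM in SCFA and from 46.8 to 377 CPM in H2O, and Neurod1 was the single cortical marker at 0 in any library. All 4 septal markers were also positive (median 0.28, 3 of 4 at an unadjusted p below 0.05), with a summed level from 29.8 to 41.2 CPM in SCFA and from 21.9 to 30.4 CPM in H2O, and their part in the factors' values was not tested. With the mean log2 level of the medium spiny neuron markers as a covariate, the median log2 fold change of the 10 factors was -0.08, with Isl1 at -0.40 ± 0.21 and Foxp2 at -0.27 ± 0.15, and 0 of 10 were at an unadjusted p below 0.05. With the cortical markers as the covariate it was -0.02, with 0.00 ± 0.21 for Isl1 and -0.10 ± 0.20 for Foxp2, and again 0 of 10. The share of all tested genes lower at that p was 2.09% with the medium spiny neuron covariate and 1.18% with the cortical one, against 5.58% with neither.

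**Figure D3:**
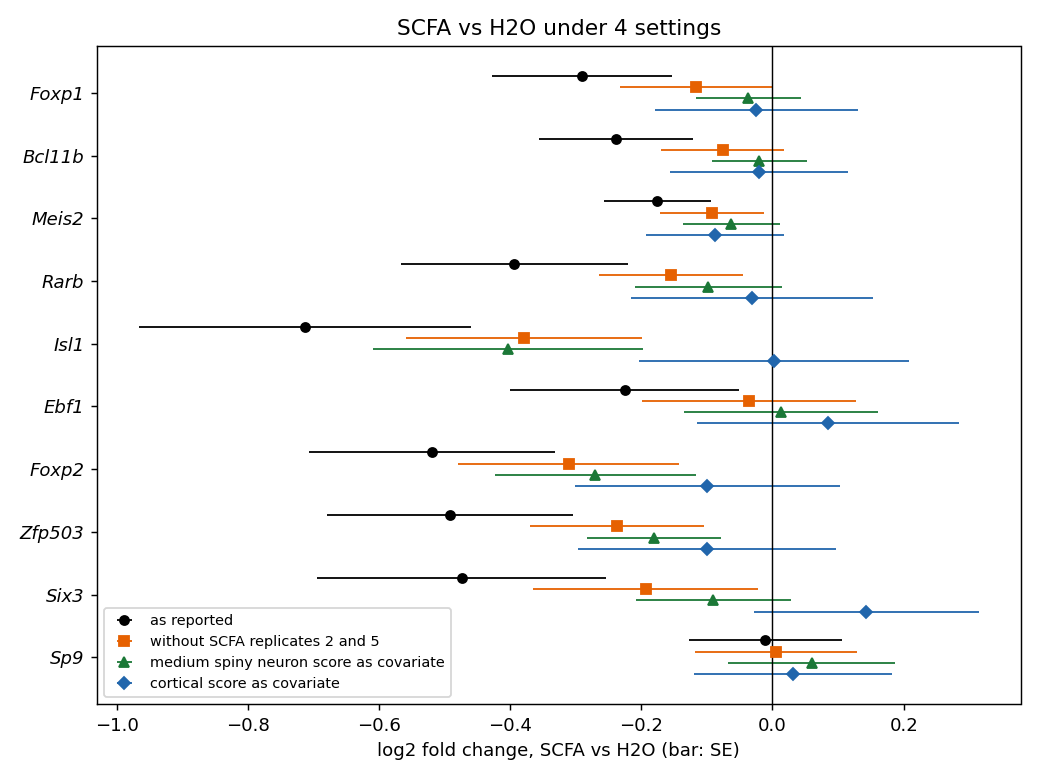
Log2 fold changes of the 10 factors in SCFA against H2O under 4 settings: as reported, without SCFA replicates 2 and 5, with the medium spiny neuron markers as covariate, and with the cortical markers as covariate; bars are SE. Isl1 runs from -0.71 as reported to 0.00 with the cortical covariate, and Sp9 stays between -0.01 and 0.06.

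Antibiotics alone gave smaller differences from H2O than fatty acids alone for most factors. Ebf1 (-0.27 against -0.23) and Sp9 (0.14 against -0.01) were the exceptions. Between Abx and H2O, 0 of 10 factors passed, and 0 of 10 were at an unadjusted p below 0.05 in edgeR, DESeq2 or limma-voom, where edgeR had 3.26% of all tested genes higher and 5.53% lower at that p and called 0%. DESeq2 called 1 of the 12846 genes and limma-voom 0. The groups overlapped for all 10 (2.46% of tested genes did not overlap), and the median log2 fold change of the 10 was -0.08. Foxp2 averaged 81.9 ± 17.3 CPM in Abx and 98.8 ± 21.96 CPM in H2O, a log2 fold change of -0.27 ± 0.21, and Ebf1 averaged 13.8 ± 2.99 CPM in Abx and 16.7 ± 3.66 CPM in H2O, also -0.27 ± 0.19. Isl1 had -0.23 ± 0.28. The other 7 lay between -0.12 (Zfp503) and 0.14 (Sp9), and the smallest edgeR adjusted p of the 10 was 0.685. Cortical markers were higher in Abx by a median log2 fold change of 2.10, with a summed level from 102 to 716 CPM in Abx and from 46.8 to 377 CPM in H2O, and with these markers as covariate the median of the 10 factors was 0.17 and Six3, at 0.49 ± 0.18 (edgeR adjusted p = 0.560), was the 1 of 10 at an unadjusted p below 0.05, against 8.44% of all genes. Without SCFA replicates 2 and 5 and H2O replicate 5 the 1 of 10 at that p was Foxp2, at -0.37 ± 0.15 (edgeR adjusted p = 0.275), where 6.32% of all genes were lower. Oligodendrocyte markers were negative for 10 of 10 (median -0.66, 9 at an unadjusted p below 0.05) and astrocyte markers for 6 of 6 (median -0.11, 2 at that p), and septal markers were positive for 4 of 4 (median 0.29, 2 at that p). Their summed levels ran from 6535 to 13795 CPM in Abx and from 14562 to 22076 CPM in H2O for oligodendrocytes, from 3229 to 3850 CPM in Abx and from 3800.5 to 4289 CPM in H2O for astrocytes, and from 26.2 to 42.4 CPM in Abx and from 21.9 to 30.4 CPM in H2O for septum. Pericyte markers were negative for 6 of 6 (median -0.10) and endothelial markers for 5 of 5 (median -0.17), with 0 at that p in each. The part of all these lists in the factors' values, that of Ebf1 included, was not tested. Within the rats of the 2-hundred series, 2 Abx against 2 H2O, all 10 differences in mean log2 CPM were negative, while in the 3-hundred series, 2 Abx against 3 H2O, 3 were negative. Zfp503, for instance, differed by -0.54 in the 2-hundred series and by 0.20 in the 3-hundred series.

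The last comparison with water takes both treatments together. Between Abx_SCFA and H2O, 0 of 10 factors passed or reached an unadjusted p below 0.05 in edgeR, DESeq2 or limma-voom, where edgeR had 2.09% of all tested genes higher and 3.46% lower at that p and called 0%. Of the 12846 genes, DESeq2 called 1 and limma-voom 0. The groups overlapped for all 10, against 1.42% of tested genes whose groups did not. Rarb averaged 136 ± 9.495 CPM in Abx_SCFA and 135 ± 23.1 CPM in H2O, a log2 fold change of 0.01 with a 95% interval from -0.37 to 0.38. Bcl11b, Meis2, Ebf1, Foxp1 and Zfp503 lay between -0.07 and 0.04, Six3 had -0.15 ± 0.23 and Sp9 0.13 ± 0.12. Foxp2 had the largest value, -0.26 ± 0.20, then Isl1 with -0.21 ± 0.26, and the smallest edgeR adjusted p was 0.824. The interval of Isl1, from -0.76 to 0.33, takes in the value measured for SCFA against H2O. Cortical markers were higher in Abx_SCFA than in H2O by a median log2 fold change of 1.76, with a summed level from 212 to 522 CPM in Abx_SCFA and from 46.8 to 377 CPM in H2O. With the cortical markers as covariate the median of the 10 factors was 0.24, against -0.04 as reported, and 2 of 10 were at an unadjusted p below 0.05, Isl1 at 0.45 ± 0.20 and Six3 at 0.43 ± 0.17 (edgeR adjusted p = 0.638 for both), against 7.79% of all genes. Without SCFA replicates 2 and 5 and H2O replicate 5, Foxp2 was the 1 of 10 at that p, at -0.37 ± 0.14 (edgeR adjusted p = 0.3195), where 5.78% of all genes were lower. Oligodendrocyte markers were negative for 10 of 10 (median -0.41, 0 at that p) and septal markers positive for 4 of 4 (median 0.44, 1 at that p). Endothelial markers were positive for 5 of 5 (median 0.16, 2 at that p) and pericyte markers for 6 of 6 (median 0.10, 0 at that p). Astrocyte markers were negative for 5 of 6 (median -0.08, 1 at that p). The part of these lists was not tested. The medium spiny neuron markers had a median of 0.01.

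Set against SCFA alone, all 10 factors had positive log2 fold changes in Abx_SCFA (median 0.26), and 0 of 10 passed in edgeR, DESeq2 or limma-voom. Of the 12846 genes, DESeq2 called 3 and the other 2 tools 0. All 10 overlapped between these groups, where 0.56% of tested genes did not. This comparison shares its SCFA libraries with SCFA against H2O. Rarb, at 136 ± 9.495 CPM in Abx_SCFA and 103 ± 29.6 CPM in SCFA, had 0.40 ± 0.17 (edgeR unadjusted p = 0.0316, adjusted p = 0.732). Zfp503, at 36.7 ± 3.81 CPM in Abx_SCFA and 27.3 ± 8.94 CPM in SCFA, had 0.43 ± 0.19 (edgeR unadjusted p = 0.0343, adjusted p = 0.732). These were the 2 of 10 at an unadjusted p below 0.05, where 2.72% of all tested genes were higher and 4.06% lower, and 0% were called. The count was 7 without SCFA replicate 4, 4 without SCFA replicate 6, 1 without Abx_SCFA replicate 2 or SCFA replicate 5, and 0 without Abx_SCFA replicate 3, Abx_SCFA replicate 4 or SCFA replicate 2. It was 3 without Abx_SCFA replicate 1, SCFA replicate 1, SCFA replicate 3 or H2O replicate 2. Over these leave-one-out fits the share of all genes at that p, in either direction, also moved. It ran from 3.74% without SCFA replicate 2 to 12% without SCFA replicate 4, against 6.78% as reported. DESeq2, limma-voom and the fit with the cortical covariate each gave 4, and the fit on these groups alone gave 0. The share of all genes in these 4 fits was 7.49%, 6.4%, 6.76% and 5.85%.

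The difference from SCFA also moved with SCFA replicates 2 and 5 and with the marker lists. Without those libraries the median of the 10 factors was 0.08, with Rarb at 0.17, Zfp503 at 0.18 and 0 of 10 at an unadjusted p below 0.05, against 3.67% of all genes. With the medium spiny neuron covariate the median was 0.03, 3 of the 10 were negative and again 0 of 10 were at that p, against 1.88% of all genes. In Abx_SCFA against SCFA, 12 of 12 medium spiny neuron markers had positive log2 fold changes (median 0.30), as did 5 of 6 D1 markers (median 0.38) and 6 of 6 D2 markers (median 0.40), and all 9 cortical markers had negative ones (median -0.98). Abx_SCFA and SCFA rats share the 4-hundred series, so number series does not separate these groups. Counts of Cend1 nearly did, from 4 to 14 in the SCFA libraries and from 114 to 188 in Abx_SCFA, apart from Abx_SCFA replicate 5 with 8. Whatever lies behind Cend1 and its part in these values was not tested.

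Between Abx_SCFA and Abx the values were near 0, with a median of 0.02 and a range from -0.08 (Six3) to 0.31 ± 0.19 (Ebf1). By edgeR 0 of 10 passed and 0 of 10 were at an unadjusted p below 0.05, where 1.85% of all tested genes were higher and 1.34% lower, and DESeq2 and limma-voom called 0 of 10. All 10 overlapped, where 1.2% of tested genes did not. Pericyte markers were positive for 6 of 6 (median 0.24, 4 at that p) and endothelial markers for 5 of 5 (median 0.27, 5 at that p). Oligodendrocyte markers were positive for 10 of 10 (median 0.24, 0 at that p) and cortical markers negative for 8 of 9 (median -0.36, 0 at that p). The part of these lists in the factors' values, that of Ebf1 included, was not tested. The interaction sets the difference of Abx_SCFA from SCFA against that of Abx from H2O, and it was positive for all 10 factors with a median of 0.44. It was 0.73 ± 0.38 for Isl1, 0.55 ± 0.28 for Zfp503, 0.54 ± 0.26 for Ebf1, 0.53 ± 0.28 for Foxp2 and 0.01 ± 0.17 for Sp9. By edgeR 0 of 10 passed (smallest adjusted p = 0.626) and 0 were at an unadjusted p below 0.05, where 2.83% of all tested genes were higher and 5.01% lower. DESeq2 had 1 and limma-voom 3 at that p, and both called 0. Of all genes, 8.66% were at that p in either direction in DESeq2 and 6.82% in limma-voom, against 7.85% in edgeR. With single libraries left out, edgeR had 4 at that p without SCFA replicate 3 or 4, 2 without Abx replicate 2, Abx replicate 3 or H2O replicate 5, and 1 without Abx_SCFA replicate 1, SCFA replicate 6, H2O replicate 1 or H2O replicate 4. The share of all genes at that p, in either direction, was 9.62% and 10.8% in the fits with 4. In the fits with 2 it was 9.89%, 8.12% and 11.1%, and in those with 1 it was 6.83%, 7.1%, 6.61% and 6.64%, in the order named. The interaction rests on the same SCFA libraries, and without SCFA replicates 2 and 5 its median was 0.18.

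Across the 20 libraries, the levels of the factors other than Sp9 were related. Over 45 pairs of factors, Pearson's r of log2 CPM had a median of 0.757, and all 36 pairs without Sp9 had an adjusted p below 0.05 for r by permutation, against 0 of the 9 pairs with Sp9. For Spearman's rho, 8 of the 36 did not, and each of the 8 held Isl1 or Ebf1. Without SCFA replicates 2 and 5, Isl1 had an r of 0.089 with Bcl11b, 0.097 with Ebf1 and 0.107 with Meis2, so these 3 relations rest on those libraries. Foxp1 and Bcl11b were closest, with r = 0.950 and Spearman's rho = 0.923 (permutation p = 1e-05 for both, the smallest that 100000 permutations can give, adjusted p = 3.7e-05 for r and 0.00022 for rho over 45 pairs). Their r was 0.920 without SCFA replicates 2 and 5 and 0.949 within the 11 libraries of the 4-hundred series. Six3 and Sp9, the D2 pair, had r = 0.263 and rho = 0.262 (permutation p = 0.26 for both, adjusted p = 0.29 for r and 0.3 for rho), with r = 0.263 again without those libraries and 0.350 within the series. Isl1 and Ebf1, both linked to the D1 type, had r = 0.560 (permutation p = 0.0098, adjusted p = 0.014) and rho = 0.266 (permutation p = 0.26, adjusted p = 0.3). Without SCFA replicates 2 and 5 the r of Isl1 and Ebf1 was 0.097, and within the 4-hundred series, which holds both, it was 0.817, so the relation rests on those libraries. The libraries also share what moves the marker lists, so no pair is independent of the others.

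Each factor was set against the medium spiny neuron markers, none of which is among the 10, and against the cortical markers. These relations, with those of Ebf1 to pericyte and Isl1 to interneuron markers, make 22. Zfp503 had the highest r with the medium spiny neuron score, with r = 0.917 and rho = 0.806 (permutation p = 1e-05 and 2e-05, adjusted p = 4.4e-05 and 0.00015), r = 0.729 without SCFA replicates 2 and 5 and r = 0.949 within the 4-hundred series. By rho, Bcl11b (0.854) and Foxp1 (0.850) were closer to that score, as they were by r without SCFA replicates 2 and 5 (0.746 and 0.770). Six3, Bcl11b, Foxp1 and Rarb had r from 0.886 to 0.914 with that score, from 0.672 to 0.770 without the same libraries and from 0.884 to 0.946 within the 4-hundred series. Isl1 had r = 0.815 and rho = 0.526 (permutation p = 0.00051 and 0.018, adjusted p = 0.0011 and 0.029) but r = 0.293 without them, so that relation rests on those libraries, which are 2 of the 11 behind its r = 0.915 within the 4-hundred series. Sp9 had r = 0.365 and rho = 0.361 (permutation p = 0.11 and 0.12, adjusted p = 0.12 and 0.13), with r = 0.504 without these libraries and 0.375 within the 4-hundred series. Meis2, Foxp2 and Ebf1 had r = 0.763, 0.760 and 0.668 with the same score. Without SCFA replicates 2 and 5 these were 0.552, 0.462 and 0.394, so Foxp2, Ebf1 and Isl1 then lay below Sp9. Within the 4-hundred series they were 0.760 for Meis2, 0.906 for Foxp2 and 0.899 for Ebf1.

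Isl1 was instead the factor most closely related to the cortical score, with r = -0.762 and rho = -0.850 (permutation p = 0.00016 and 1e-05, adjusted p = 0.00039 and 0.00015). This r was -0.779 without H2O replicates 3 and 1, the libraries farthest from the median score, and -0.804 within the 4-hundred series. Six3 followed with r = -0.746 and rho = -0.782 (permutation p = 0.00014 and 0.0001, adjusted p = 0.00038 and 0.00044), r = -0.771 without the same H2O libraries and r = -0.866 within the 4-hundred series. Meis2 had r = -0.412 and rho = -0.257 (permutation p = 0.072 and 0.27, adjusted p = 0.083 and 0.29), and Sp9 had r = 0.009 and rho = -0.054 (permutation p = 0.97 and 0.82, adjusted p = 0.97 and 0.82). Within the 4-hundred series these r were -0.348 for Meis2 and -0.534 for Sp9. With its second cell types, Isl1 had r = 0.722 and rho = 0.586 to the interneuron score (permutation p = 0.00096 and 0.0076, adjusted p = 0.0018 and 0.013), or r = 0.478 without SCFA replicates 2 and 6 and r = 0.826 within the 4-hundred series. Chat, which makes acetylcholine in cholinergic interneurons, averaged 15.1 ± 6.44 CPM in SCFA and 20.6 ± 4.85 CPM in H2O. Of the 9 interneuron markers tested, 6 were lower in SCFA than in H2O and 3 higher. Pvalb, Sst and Nos1 averaged 13.2, 123 and 44.2 CPM in SCFA and 9.23, 118 and 39.8 CPM in H2O. The score also holds Npy, which averaged 0.11 CPM in SCFA and 0.058 CPM in H2O. Ebf1 had r = 0.370 and rho = 0.391 to the pericyte score (permutation p = 0.11 and 0.089, adjusted p = 0.12 and 0.11), or r = 0.583 within the 4-hundred series.

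**Figure D4:**
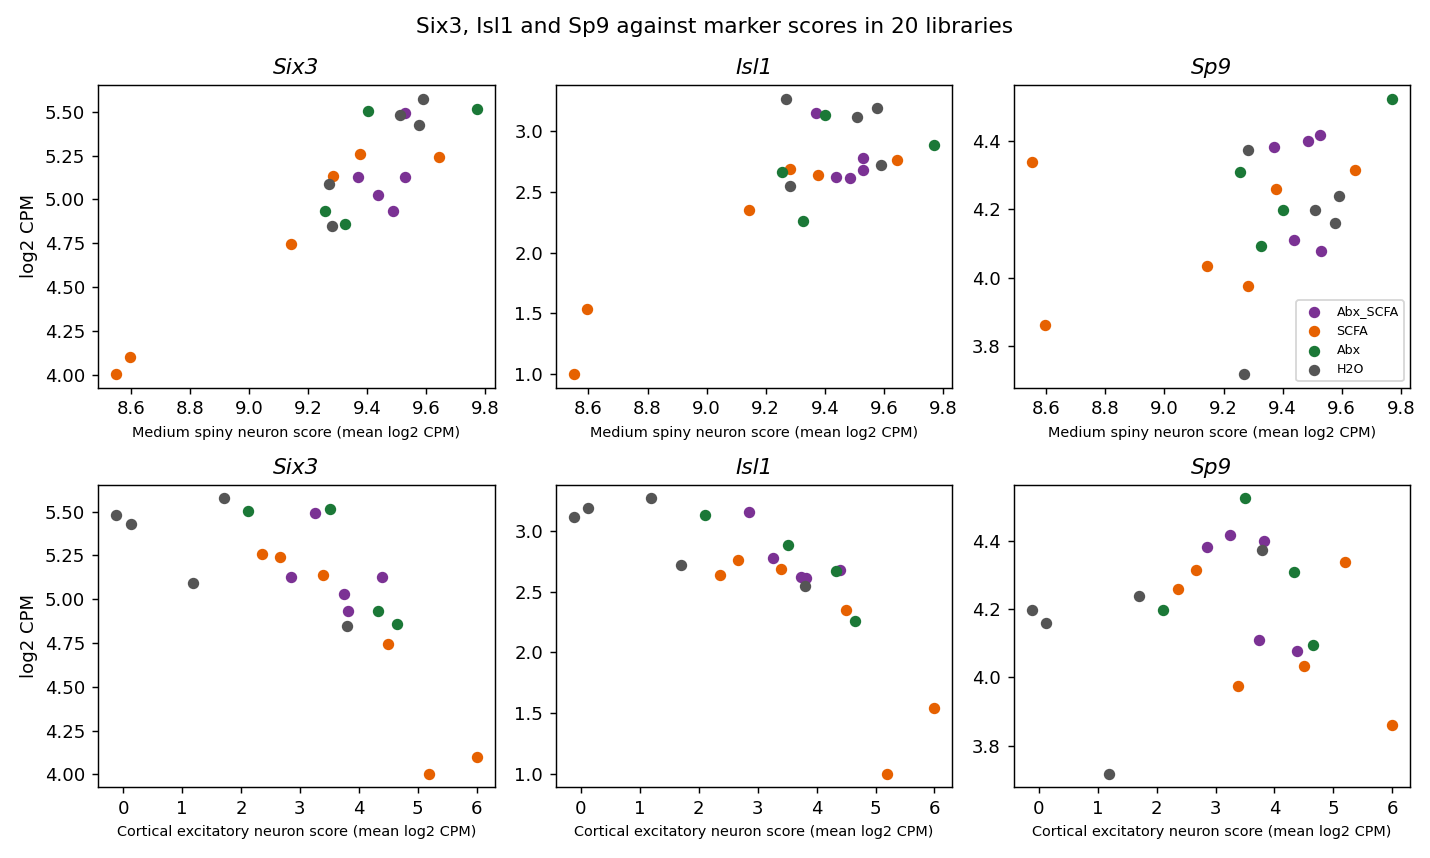
Log2 CPM of Six3, Isl1 and Sp9 against the mean log2 CPM of 12 medium spiny neuron markers and of 9 cortical excitatory neuron markers, with 1 point per library (n = 20) coloured by group. Six3 has r = 0.914 with the medium spiny neuron score, Isl1 has r = -0.762 with the cortical score, and Sp9 has r = 0.009 with it.

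Of 24 other regulators of striatal development or activity that were listed, 21 were in the table, and none passed in any comparison with H2O. In SCFA against H2O 11 values were positive and 10 negative, with a median of 0.13, and 5 of 21 were higher and 1 lower at an unadjusted p below 0.05. Zfp703, a zinc finger corepressor, had 0.37 ± 0.11 (edgeR adjusted p = 0.247). Zfp521 had -0.28 ± 0.11 and Pbx3, a TALE homeodomain partner of Meis factors, -0.23 ± 0.12. In Abx against H2O the regulators with the smallest p were Zfp703 (0.32 ± 0.12) and Nr4a1 (0.35 ± 0.17), an activity-induced nuclear receptor, on the higher side, and Meis1 (-0.29 ± 0.13) and Ikzf1 (-0.27 ± 0.13) on the lower. In Abx_SCFA against H2O they were Zfp703 (0.29 ± 0.11) and Dlx2 (0.82 ± 0.42), and Ikzf2 (-0.60 ± 0.27) and Meis1 (-0.21 ± 0.12). The medians of the 21 were 0.19 in Abx and 0.10 in Abx_SCFA.

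The genes whose log2 CPM was most like each factor's, after centring on the group means, were found among 10383 genes of at least 5 CPM over the 20 libraries. Foxp1 was most like Ppp3ca and Pde7b (Pearson's r = 0.95 for both), Bcl11b like Rab40b (0.97) and Dgkb (0.96), and Rarb like Patj and Prkch (0.96 for both). Zfp503 was most like Slc35d3 (0.95), a marker of D1 neurons, and Slc32a1 (0.95), the vesicular transporter of GABA. For Isl1 they were Robo1 (0.92) and Fras1 (0.91), for Foxp2 Grb10 (0.92) and Gabra2 (0.91), for Six3 Dbp (0.95) and Agfg2 (0.94), for Meis2 Tle4 (0.93) and Prkar2b (0.90), and for Ebf1 Pou3f1 and Dpy19l3 (0.91 for both). Sp9 had the weakest likeness, to Vars (0.81) and Trim28 (0.72).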

How the data were processed

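The authors deposited whole-number counts per gene symbol for 20 libraries of polyA RNA, made with a SMARTer cDNA kit per the labels' protocols. The submitters' processing notes name STAR 2.4.0 with build Rnor_6.0, FastQC 0.11.6 and limma, without their roles. How reads were counted, with which annotation and strand setting, is not given in the sources used here, so reads of overlapping or antisense genes cannot be assigned with certainty. Libraries were grouped by their treatment labels, and no 2 agreed within sampling noise.

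The 4 groups were fitted together with edgeR 4.0.16 in R 4.3.3 (TMM scaling, robust quasi-likelihood F test, 16 residual degrees of freedom). The filter filterByExpr kept genes with at least 10 counts in enough libraries and 15 in total, and p-values were adjusted over all 12846. CPM uses TMM-adjusted library sizes, and log2 CPM a prior count of 2. A marker score is the mean log2 CPM of a list. Alternatives used DESeq2 1.42.0, limma 3.58.1, other scaling and filters, marker covariates and libraries left out. Scripts were tested on simulated data.

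All 10 factors are named with their levels, and of other regulators those with the 2 smallest p-values in each direction, of which 1 is not reported here. The factors, lists and tests were chosen with earlier results of these data known. Cage mates are not identified, so p-values measure the spread between rats taken as independent, and depth sets counting error only.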

Additional observations from a re-analysis of the deposited data

How the results depend on the processing

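No factor passed the adjusted threshold under any setting, and 29 of 330 gene values under alternatives (single libraries left out not counted) reversed. No paired analysis was possible because the rat numbers in the labels belong to 1 rat each and pair no libraries. With the cortical score as covariate the median log2 fold change of the 10 factors was 0.24 in Abx_SCFA against H2O, -0.023 in SCFA against H2O, 0.17 in Abx against H2O and 0.080 in the interaction, and with the medium spiny neuron score it was -0.076 in SCFA against H2O and 0.12 in the interaction. Without SCFA replicates 2 and 5 the interaction median was 0.18. Directions reversed under the cortical covariate for Foxp1 (0.17), Foxp2 (0.12), Isl1 (0.45), Meis2 (0.065), Bcl11b (0.19), Six3 (0.43) and Zfp503 (0.30) in Abx_SCFA against H2O. They also did for Isl1 (0.0024), Ebf1 (0.085), Six3 (0.14) and Sp9 (0.031) in SCFA against H2O, and for Foxp1 (0.16), Foxp2 (0.097), Isl1 (0.42), Ebf1 (0.0025), Meis2 (0.045), Bcl11b (0.16), Six3 (0.49), Rarb (0.25) and Zfp503 (0.25) in Abx against H2O. With the medium spiny neuron covariate, Rarb was -0.0071 in Abx_SCFA against H2O, and Ebf1 0.013 and Sp9 0.060 in SCFA against H2O. Sp9 in SCFA against H2O was 0.0054 without SCFA replicates 2 and 5 and 0.071 without these and H2O replicate 5, where Rarb was -0.050 in Abx_SCFA against H2O. In that comparison Bcl11b was 0.0035 with no filter and 0.0008 when fitted on the compared groups alone, and Ebf1 was -0.037 without H2O replicate 4 and Abx_SCFA replicate 5. These last 2 sets of libraries (with H2O replicate 5 or 4) were chosen after the data were seen. Leaving out 1 library at a time, values in Abx_SCFA against H2O ran from -0.13 to 0.013 for Foxp1, -0.024 to 0.16 for Ebf1, -0.045 to 0.048 for Meis2, -0.047 to 0.067 for Bcl11b and -0.051 to 0.093 for Rarb. In SCFA against H2O Sp9 ran from -0.11 to 0.055, and in Abx against H2O Foxp1 ran from -0.16 to 0.014, Meis2 from -0.071 to 0.033, Bcl11b from -0.10 to 0.042, Six3 from -0.17 to 0.036 and Rarb from -0.18 to 0.0027. The causes were not tested.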
